A study of Mus musculus with 9 samples.

Results

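Matrix metalloproteinases (MMPs), the ADAMTS and ADAMTS-like genes and the tissue inhibitors of metalloproteinases (TIMPs) are described here in cultured cardiac fibroblasts of neonatal mice, the stromal cells that lay down the matrix of the heart. All rows of the deposited expression table whose symbol is Mmp, Timp, Adamts or Adamtsl with a number were taken, which gave 51 genes of 34779 named genes. They comprise 23 MMP, 4 TIMP, 19 ADAMTS and 5 ADAMTS-like genes. The 9 libraries form 3 groups of 3, all wild type and all collected at day 14 after virus infection. The negative control was infected with a DsRed virus, which carries a red fluorescent protein. The MGT group was infected with MGT virus, which delivers Mef2c, Gata4 and Tbx5, heart transcription factors that can reprogram fibroblasts towards cardiomyocytes. The MGT+TMP269 group received MGT and was kept with TMP269, a compound that blocks class IIa histone deacetylases and that the series describes as inhibiting HDAC4. The sources used here give neither strain, sex nor the dose of TMP269, and describe no sorting of infected cells from the bulk cultures. In such samples, fewer cells of a type and less RNA per cell cannot be told apart.

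MMPs are zinc-dependent enzymes that cut collagens, proteoglycans and other matrix proteins, and most are made as inactive precursors. TIMPs bind the active site of MMPs and block it, and TIMP3 also inhibits several ADAMTS enzymes. ADAMTS enzymes are secreted relatives with thrombospondin repeats that trim procollagens or cut large proteoglycans, and ADAMTS-like proteins share those repeats but lack the catalytic domain. In the heart, fibroblasts are a main source of these proteins, which take part in the turnover of the interstitial matrix.

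Levels are in TPM, a unit that divides by transcript length and sets each library to the same total, so levels of different genes can be compared on this scale. Read depth is unknown with this unit. Replicates are labelled as biological without naming animals or cultures, so the p-values rest on a spread between libraries that may be technical. DsRed replicate 2 stood apart, with an upper-quartile TPM of 5.38 against 8.69 to 9.57 in the other 8 libraries and correlations of 0.942 to 0.943 with the other DsRed libraries across genes. All 9 cardiac fibroblast markers, among them Col1a1, Pdgfra and Tcf21, had group means above 1 TPM in every group. They summed to 8602 to 12097 TPM in the DsRed libraries, 11462 to 11948 in MGT and 6489 to 6681 with TMP269. Cardiomyocyte markers summed to 170.0 to 257 TPM in DsRed, 4479 to 4968 in MGT and 6700.2 to 7244 with TMP269. Markers of macrophages, which also make MMPs, summed to 516 to 1539, 1495 to 2862 and 91.9 to 134 TPM in the same order of groups. Abundant genes weigh most in such sums. Lyz2 alone held 450 to 1310, 1333.6 to 2577.5 and 66.2 to 100.1 TPM of the macrophage sums. Tnnt2 held 157 to 246, 3829 to 4243 and 5751 to 6168 TPM of the cardiomyocyte sums. Of the fibroblast sums, Vim held 3922 to 4230, 4299 to 4480 and 4274 to 4458 TPM. Endothelial markers summed to at most 9.49 TPM and neutrophil markers to at most 3.60 TPM in any library.

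In 37 of the 51 genes at least 1 group mean reached 1 TPM. A mean of at least 1 TPM over all 9 libraries was needed for the test, which 34 members passed. The test was limma's on log2(TPM + 1), two-sided, and its p-values were adjusted over all 13228 genes that passed. Called means an adjusted p under 0.05, and rose or fell is written of called genes. Differences below are of mean log2(TPM + 1) with their standard error, folds are ratios of mean TPM, and means are given ± SD with n = 3.

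MGT was first set against DsRed, for the effect of the delivered factors without the compound. The most abundant secreted metalloproteinase, Mmp2, the stromelysins Mmp3 and Mmp10 and the inhibitors Timp1 and Timp3 fell. Adamts8, Adamts20, Adamtsl2, Adamtsl5, Mmp12 and Mmp23 rose. Timp2, the most abundant inhibitor in the MGT libraries, was not called. Of the 34 members tested, 6 rose and 10 fell. Of all genes tested, 12.3% were called, 8.14% higher and 4.18% lower. The median difference of the members was −0.16, and that of all genes 0.11. Of the 9 fibroblast markers, 3 fell and 1 rose with MGT. Without DsRed replicate 2, 6 rose and 18 fell, when 26.3% of all genes were called (12.5% higher and 13.8% lower). Only 6 fell without MGT replicate 1 or MGT replicate 3, when the lower calls over all genes went from 553 to 345 and 342. The additional lower members without DsRed replicate 2 were Adamts1, Adamts2, Adamts9, Adamts10, Adamts12, Mmp16, Mmp17 and Mmp19. Under median-ratio scaling, which took the median of all genes to −0.01, 5 members rose and 14 fell (1150 and 913 of all genes, against 1077 and 553 without it).

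Adding TMP269 to MGT addressed the main question of the series. Mmp2, Mmp3, Mmp10, Timp1 and Timp3, which were already lower with MGT than in DsRed, fell again. Mmp23, Adamts8 and Adamtsl2, which were higher with MGT than in DsRed, fell with TMP269. The 2 comparisons share the MGT libraries, so their directions are not independent of each other. Mmp11, Mmp15, Adamts5 and Adamts20 rose. Of the 34 members, 4 rose and 13 fell, when 9.29% of all genes tested were called, 3.32% higher and 5.97% lower. Their median difference was −0.44, and 0.11 over all genes. Of the 9 fibroblast markers, 5 fell in the same comparison (7 without DsRed replicate 2), among them Postn, a matricellular protein of activated fibroblasts, from 724 ± 12.3 to 99.8 ± 4.85 TPM (adjusted p = 4.95e-05). The part of the fibroblast markers in the falls of MMP and TIMP genes was not tested. Only 1 member rose when MGT replicate 1 or 2, or any MGT+TMP269 replicate, was left out, and 2 when MGT replicate 3 was. The higher calls over all genes went from 439 to between 172 and 187 in those 6 fits. The lower count ran from 10 to 16 with 1 library left out. Over all genes the lower calls then ran from 450 to 1496, against 790 with all libraries. In the fit without DsRed replicate 2, which enters only through the shared estimate of the spread, 5 rose and 16 fell (30.6% of all genes, 19.3% higher and 11.3% lower), with Adamts7 added to the higher and Adamts1, Adamts4 and Adamts12 to the lower members.

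MGT with TMP269 was also set against the DsRed control. Here 15 members were lower and 7 higher, when 22.8% of all genes tested were called, 8.06% lower and 14.7% higher. The falls of Mmp3, Mmp10 and Mmp2 were 17.9-fold, 13.0-fold and 10.5-fold, and those of Timp3 and Timp1 7.85-fold and 4.96-fold. The higher members were Adamts20, Adamts8, Adamtsl5, Adamtsl2, Mmp15, Mmp12 and Mmp11. The call of Mmp11 against DsRed (log2 difference 0.68 ± 0.21, adjusted p = 0.0436) was lost under median-ratio scaling (adjusted p = 0.297), under quantile normalization (adjusted p = 0.246) and without MGT replicate 1 or 3, or without MGT+TMP269 replicate 1, 2 or 3, or without DsRed replicate 1 or 3 (highest adjusted p = 0.152). That of Mmp12 (log2 difference 1.42 ± 0.40, adjusted p = 0.0323) was lost without MGT replicate 1, 2 or 3, or without MGT+TMP269 replicate 2 or 3, or without DsRed replicate 1 or 2 (highest adjusted p = 0.115). Of the 9 fibroblast markers, 6 were lower and 1 higher. Pdgfra, a receptor that marks fibroblasts, was at 27.3 ± 13.8 TPM in DsRed and 4.04 ± 0.647 TPM with TMP269 (adjusted p = 0.00128). The means of Thy1 and Vim went the other way, from 202 ± 5.75 to 365 ± 17.6 TPM and from 4060 ± 156 to 4369 ± 92.2 TPM. The median difference was −0.83 for the members and 0.22 for all genes. Only 4 members were higher when MGT replicate 1 or 3 or MGT+TMP269 replicate 2 or 3 was left out. The higher calls over all genes were then 1535, 1515, 1113 and 1108 in that order, against 1950 in the fit of all libraries. With DsRed replicate 2 left out, 6 were higher and 21 lower (36.6% of all genes, 21.4% higher and 15.3% lower). Median-ratio scaling gave 5 higher and 20 lower members, and turned the split over all genes from 1950 higher and 1066 lower to 1573 and 1720.

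**Figure D1:**
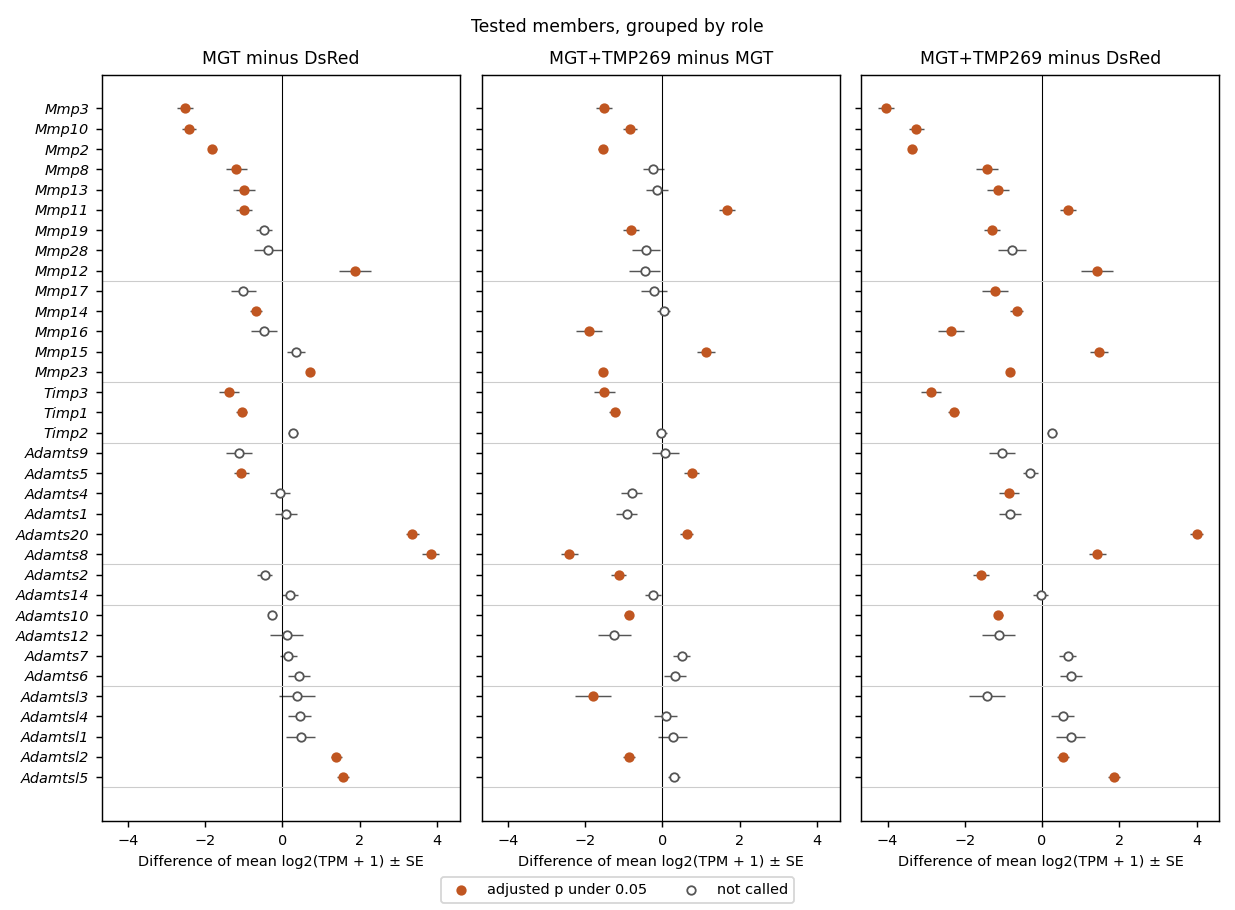
Difference of mean log2(TPM + 1) with its standard error for the 34 tested members in the 3 comparisons, which share libraries. Filled points passed an adjusted p of 0.05. The blocks from top to bottom are secreted MMPs, membrane-bound MMPs, TIMPs, proteoglycan-cutting ADAMTS genes, procollagen N-proteinases, other ADAMTS genes and ADAMTS-like genes. Of the 3 tested TIMP genes, Timp2 was the one not called in any of the 3 panels.

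Among the 16 secreted MMP genes, 9 were tested. With MGT 6 fell and 1 rose, and with TMP269 added 4 fell and 1 rose, with medians of −0.998 and −0.46. Over all genes 4.18% fell and 8.14% rose with MGT, and 5.97% fell and 3.32% rose with TMP269 added. Without DsRed replicate 2, 7 fell with MGT and 4 with TMP269 added, when 13.8% and 11.3% of all genes fell. Mmp2, the gelatinase that cuts denatured collagen and basement membrane, stood at 586, 719.9 and 682 TPM in the DsRed replicates, at 198, 189 and 174 TPM in the MGT replicates and at 57.6, 64.6 and 67.8 TPM with TMP269. Its groups did not overlap and every step was downward. Mmp2 fell 3.54-fold with MGT (log2 difference −1.82 ± 0.12, adjusted p = 6.75e-06) and 2.95-fold with TMP269 added (log2 difference −1.55 ± 0.12, adjusted p = 7.34e-05). Mmp9, the other gelatinase, stayed under the filter, at 1.36, 1.03 and 2.90 TPM in the DsRed replicates, at 0.345, 0.874 and 0.684 TPM in the MGT replicates and at 0.608, 0.527 and 0.646 TPM with TMP269, and DsRed replicate 3 was its highest library.

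Mmp3 and Mmp10 are stromelysins, enzymes that cut proteoglycans, fibronectin and laminin and can activate other MMPs. Mmp3 stood at 164, 143 and 181 TPM in the DsRed replicates, at 23.0, 31.4 and 27.8 TPM in the MGT replicates and at 6.75, 8.36 and 12.2 TPM with TMP269. All DsRed libraries were far above all others, and the TMP269 libraries were the lowest. Mmp3 fell 5.94-fold with MGT (log2 difference −2.53 ± 0.21, adjusted p = 3.55e-05) and 3.01-fold with TMP269 (log2 difference −1.52 ± 0.21, adjusted p = 0.00189). Mmp10 stood at 32.4, 27.0 and 37.7 TPM in the DsRed replicates, at 5.12, 4.89 and 5.48 TPM in the MGT replicates and at 2.10, 2.19 and 3.15 TPM with TMP269, in the same order and again with no overlap. It fell 6.27-fold with MGT (log2 difference −2.42 ± 0.19, adjusted p = 2.47e-05) and 2.08-fold with TMP269 (log2 difference −0.84 ± 0.19, adjusted p = 0.024). The latter call was lost without MGT replicate 1, 2 or 3, or without MGT+TMP269 replicate 1 or 2 (highest adjusted p = 0.107). Mmp3 and Mmp10 are close relatives, and the counting could divide reads between near-identical stretches.

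The collagenases, which cut native fibrillar collagen, were low. Mmp8 stood at 10.4, 5.31 and 11.9 TPM in the DsRed replicates, at 3.31, 3.56 and 2.94 TPM in the MGT replicates and at 3.10, 2.04 and 2.83 TPM with TMP269. Its DsRed libraries lay above the others, while MGT and MGT+TMP269 overlapped. Mmp8 fell 2.82-fold with MGT (log2 difference −1.20 ± 0.28, adjusted p = 0.0199), a call that was lost without MGT replicate 1, 2 or 3, or without DsRed replicate 1 or 3 (highest adjusted p = 0.0822), and it was not called with TMP269 (adjusted p = 0.696). Mmp8 is best known from neutrophils. The 4 neutrophil markers had group means under 1 TPM in every group, except Csf3r at 1.38 ± 0.158 TPM in MGT. The part of neutrophils in the Mmp8 values was not tested. Mmp13 stood at 5.32, 2.13 and 3.34 TPM in the DsRed replicates, at 1.51, 1.11 and 1.04 TPM in the MGT replicates and at 1.01, 0.698 and 1.39 TPM with TMP269. It fell 2.95-fold with MGT (log2 difference −0.998 ± 0.28, adjusted p = 0.0475), and this was lost without MGT replicate 1, 2 or 3, or without MGT+TMP269 replicate 1, 2 or 3, or without DsRed replicate 1 or 3 (highest adjusted p = 0.157), at a pseudocount of 0.1 (adjusted p = 0.0652) and with no filter (adjusted p = 0.0859).

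Mmp3, Mmp10, Mmp12 and Mmp13 lie in a cluster of MMP genes on mouse chromosome 9. They are the tested members whose promoter held the AP-1 motif TGANTCA, which reads the same on both strands with N as any base. The motif was searched in the 250 bases before each RefSeq start site (build GRCm38.p6), where 36 of the 51 members had at least 1 entry. It was present for 8 of these 36 genes (8 of their 39 promoters), the other carriers being Mmp1a, Mmp1b, Mmp7 and Mmp20. Of all 32851 promoters in the table, 6.75% held it. All 8 lie in this chromosome 9 cluster, so they are not 8 independent occurrences. The last 80 bases before the start site are shown for the 4 tested genes that share the motif, 5′ to 3′ on the plus strand. The motif is in capitals. Of these 4, 3 fell with MGT and Mmp12 rose, where 10 of all 34 tested members fell. The call of Mmp13 was lost when single libraries were left out, as given above. The stretches are chr9:7445742-7445821 for Mmp3, chr9:7502262-7502341 for Mmp10, chr9:7272434-7272513 for Mmp13 and chr9:7347294-7347373 for the one of both Mmp12 start sites whose promoter holds the motif.
Mmp3: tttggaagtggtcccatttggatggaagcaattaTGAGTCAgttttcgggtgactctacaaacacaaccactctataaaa
Mmp10: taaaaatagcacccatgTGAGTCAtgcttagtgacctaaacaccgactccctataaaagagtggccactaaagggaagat
Mmp13: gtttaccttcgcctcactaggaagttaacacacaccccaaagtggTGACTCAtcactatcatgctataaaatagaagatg
Mmp12: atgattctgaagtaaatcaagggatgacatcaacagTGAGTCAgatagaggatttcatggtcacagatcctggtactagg

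The motif begins 46 bases before the start site in Mmp3, 63 in Mmp10, 35 in Mmp13 and 44 in Mmp12. In Mmp3, Mmp10 and Mmp12 its letters are TGAGTCA and in Mmp13 TGACTCA. A match is a description of these letters and not evidence of binding. The part of AP-1 factors in the falls of these genes was not tested. Among the AP-1 transcription factor genes, 6 of 7 were tested, and 2 fell and 0 rose with MGT. Over all genes 4.18% fell and 8.14% rose. Without DsRed replicate 2, 2 fell and 1 rose, when 13.8% and 12.5% of all genes did. The lower ones with all libraries were Fosl1, from 7.17 ± 1.77 to 3.43 ± 0.403 TPM (adjusted p = 0.0432), and Junb, from 79.3 ± 8.08 to 48.7 ± 3.69 TPM (adjusted p = 0.00561). The mean of Fosl2 went the other way, from 46.7 ± 18.5 TPM in DsRed to 75.6 ± 2.03 in MGT and 88.4 ± 2.71 with TMP269. Fosl2 was called higher only for TMP269 against DsRed, a call lost with no filter (adjusted p = 0.0629). With TMP269 added, Jund rose from 151 ± 3.72 to 244 ± 17.99 TPM (adjusted p = 0.00349) and Junb to 68.5 ± 6.47 TPM (adjusted p = 0.0436), while Fos and Jun were not called in any of the 3 comparisons. The fall of Fosl1 was lost without MGT replicate 1, 2 or 3, or without MGT+TMP269 replicate 1 or 3, or without DsRed replicate 1 or 3 (highest adjusted p = 0.147). The rise of Junb was lost without MGT replicate 1, 2 or 3, or without MGT+TMP269 replicate 1, 2 or 3 (highest adjusted p = 0.186), and under median-ratio scaling neither Junb nor Jund kept its rise (adjusted p = 0.17 and 0.088). The GATA motif (AGATAA or TGATAA, both strands) was present for 3 of the 36 genes (3 of their 39 promoters), against 16.6% of all promoters. The T-box half-site GGTGTNA was present for 3 against 8.61%, the TEAD motif GGAATG for 2 against 12.6%, and the MEF2 motif for 1, Mmp10, against 2.92%.

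Mmp11, Mmp12 and Mmp19 took other courses. Mmp11, a stromelysin-like enzyme that leaves its cell already activated by furin, stood at 20.3, 31.3 and 25.1 TPM in the DsRed replicates, at 10.3, 15.1 and 11.5 TPM in the MGT replicates and at 47.2, 42.2 and 34.3 TPM with TMP269. The MGT libraries were the lowest and the TMP269 libraries the highest, with no overlap between the groups. Mmp11 fell 2.08-fold with MGT (log2 difference −0.99 ± 0.21, adjusted p = 0.0117), lost without MGT replicate 1 or 3 (highest adjusted p = 0.0583), and rose 3.35-fold with TMP269 (log2 difference 1.67 ± 0.21, adjusted p = 0.00108). Mmp12, the macrophage elastase, stood at 11.5, 8.91 and 28.5 TPM in the DsRed replicates, at 56.1, 48.4 and 63.3 TPM in the MGT replicates and at 29.4, 34.8 and 63.6 TPM with TMP269. MGT lay above DsRed in every library, and the TMP269 libraries overlapped MGT. Mmp12 rose 3.43-fold with MGT (log2 difference 1.88 ± 0.40, adjusted p = 0.0134), a call lost without MGT replicate 1 or 3, or without DsRed replicate 1 (highest adjusted p = 0.06). With TMP269 its log2 difference from MGT was −0.46 ± 0.40 (adjusted p = 0.583). Of the 9 tested macrophage markers, 1, Lyz2, rose with MGT (and 0 without DsRed replicate 2) and 9 fell with TMP269 added. The rise of Lyz2 was lost without MGT replicate 1 or 3, or without MGT+TMP269 replicate 1, 2 or 3, or without DsRed replicate 1 or 2 (highest adjusted p = 0.143). In DsRed replicate 3, where Mmp12 was highest of the DsRed libraries, the macrophage markers summed to 1539 TPM against 516 and 539 in the other DsRed libraries. Cd163 was below 1 TPM in every group. The part of macrophages in the Mmp12 values was not tested. Mmp19, which cuts basement membrane proteins, stood at 34.5, 21.3 and 38.4 TPM in the DsRed replicates, at 21.8, 21.2 and 21.98 TPM in the MGT replicates and at 10.6, 12.0 and 13.1 TPM with TMP269. The TMP269 libraries were below all others. Mmp19 was not called with MGT (adjusted p = 0.198, and adjusted p = 0.00144 without DsRed replicate 2) and fell 1.82-fold with TMP269 (log2 difference −0.81 ± 0.21, adjusted p = 0.0413). That call was lost without MGT replicate 1, 2 or 3, or without MGT+TMP269 replicate 1, 2 or 3 (highest adjusted p = 0.158). Mmp28 was at 1.69 ± 1.31, 0.947 ± 0.371 and 0.455 ± 0.245 TPM and was not called in any comparison.

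**Figure D2:**
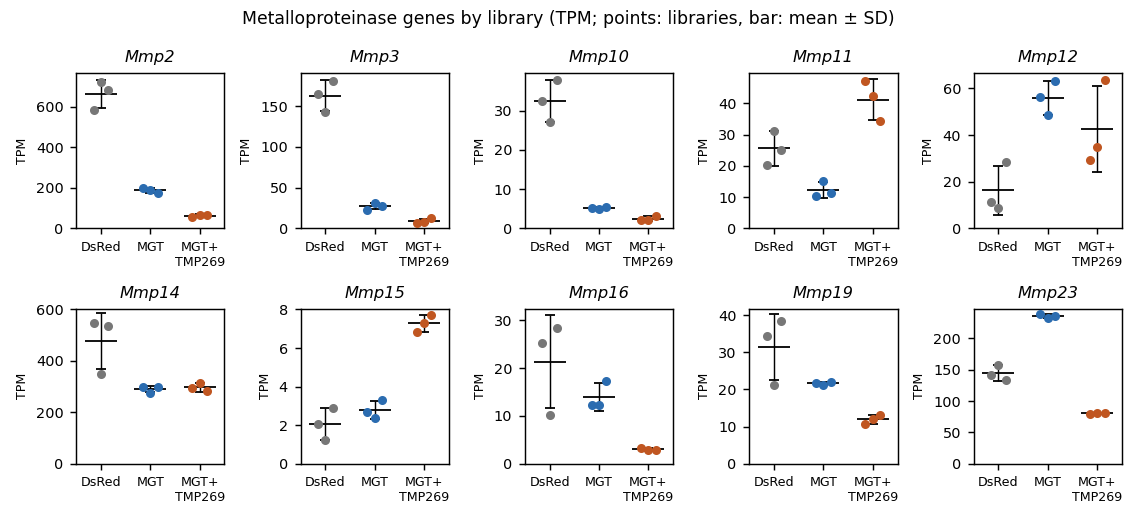
TPM of 10 metalloproteinase genes in each library (points), with mean and SD of each group (bars, n = 3), on linear axes from 0. Mmp2, Mmp3 and Mmp10 step down from DsRed to MGT and again with TMP269, whereas Mmp11 and Mmp15 were highest with TMP269 and Mmp23 was highest with MGT alone.

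Of the 7 membrane-bound MMP genes, 5 were tested, of which 1 rose and 1 fell with MGT, and 1 rose and 2 fell with TMP269. Without DsRed replicate 2, 3 fell with MGT, when 13.8% of all genes were called lower, against 4.18% with it. Mmp14 is the main collagenase of the fibroblast surface and, together with Timp2, activates the precursor of MMP2. It stood at 547, 349.8 and 533 TPM in the DsRed replicates, at 297, 276 and 296 TPM in the MGT replicates and at 293, 315 and 281 TPM with TMP269. Every DsRed library was above the rest, and MGT and MGT+TMP269 overlapped. Mmp14 fell 1.65-fold with MGT (log2 difference −0.69 ± 0.16, adjusted p = 0.022) and its difference with TMP269 was 0.03 ± 0.16 (adjusted p = 0.938). The fall was lost without MGT replicate 1, 2 or 3, or without DsRed replicate 1 or 3 (highest adjusted p = 0.0884). When DsRed replicate 2, the DsRed library with the least Mmp14, was left out, the fall was 1.87-fold (adjusted p = 2.33e-05).

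Mmp23, an atypical membrane-anchored MMP, stood at 141, 158 and 133 TPM in the DsRed replicates, at 239.6, 233 and 235 TPM in the MGT replicates and at 79.997, 81.3 and 80.4 TPM with TMP269. The 3 groups were fully separated, with MGT at the top and MGT+TMP269 at the bottom. Mmp23 rose 1.64-fold with MGT (log2 difference 0.71 ± 0.10, adjusted p = 0.00104) and fell 2.93-fold with TMP269 (log2 difference −1.54 ± 0.10, adjusted p = 3.63e-05). Under median-ratio scaling the rise missed the threshold (adjusted p = 0.0681). Mmp15 and Mmp16 are transmembrane relatives of Mmp14, and with TMP269 one rose and the other fell. Mmp15 stood at 2.05, 1.21 and 2.91 TPM in the DsRed replicates, at 2.67, 2.37 and 3.30 TPM in the MGT replicates and at 6.82, 7.31 and 7.71 TPM with TMP269. The TMP269 libraries lay above all others. Mmp15 rose 2.62-fold with TMP269 (log2 difference 1.14 ± 0.23, adjusted p = 0.0155), lost without MGT replicate 1 or 2, or without MGT+TMP269 replicate 1, 2 or 3 (highest adjusted p = 0.0689), and was not called with MGT (adjusted p = 0.426). Mmp16 stood at 25.3, 10.2 and 28.4 TPM in the DsRed replicates, at 12.2, 12.4 and 17.3 TPM in the MGT replicates and at 3.36, 2.81 and 2.81 TPM with TMP269. Here the TMP269 libraries were the lowest, and DsRed replicate 2 lay below the MGT libraries. Mmp16 fell 4.67-fold with TMP269 (log2 difference −1.89 ± 0.34, adjusted p = 0.00729) and was not called with MGT (adjusted p = 0.437, and adjusted p = 0.0047 without DsRed replicate 2). Mmp17, anchored by a lipid tail, was at 2.71 ± 1.57, 0.757 ± 0.393 and 0.500 ± 0.228 TPM. It was called lower only against DsRed in the presence of TMP269 (log2 difference −1.23 ± 0.33, adjusted p = 0.0265), which was lost without MGT+TMP269 replicate 1, 2 or 3, or without DsRed replicate 1 or 3 (highest adjusted p = 0.0921).

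Timp1, Timp2 and Timp3, which encode inhibitors of these enzymes, were among the most abundant members. Timp1, an inducible inhibitor, stood at 1130.2, 1634 and 1269.7 TPM in the DsRed replicates, at 616, 608 and 692 TPM in the MGT replicates and at 264, 282 and 267 TPM with TMP269. Each group was below the one before it, with no overlap, and DsRed replicate 2 was the highest library. Timp1 fell 2.11-fold with MGT (log2 difference −1.06 ± 0.14, adjusted p = 0.000648) and 2.36-fold with TMP269 (log2 difference −1.23 ± 0.14, adjusted p = 0.000552). Timp3, which is held in the matrix, stood at 2280.1, 1006 and 2134 TPM in the DsRed replicates, at 644, 638 and 668 TPM in the MGT replicates and at 212, 224 and 254 TPM with TMP269. The order of the groups was the same, but DsRed replicate 2 was the lowest of its group. Timp3 fell 2.78-fold with MGT (log2 difference −1.38 ± 0.26, adjusted p = 0.00727, and 3.40-fold without DsRed replicate 2) and 2.82-fold with TMP269 (log2 difference −1.50 ± 0.26, adjusted p = 0.00711). Timp2, made constitutively in many tissues, stood at 1647, 1219 and 1761 TPM in the DsRed replicates, at 1851, 1841 and 1806 TPM in the MGT replicates and at 1851, 1808 and 1761 TPM with TMP269. MGT and MGT+TMP269 overlapped, and every DsRed library lay below them, DsRed replicate 3 only just. Timp2 was called neither with MGT (log2 difference 0.27 ± 0.13, adjusted p = 0.251) nor with TMP269 (log2 difference −0.02 ± 0.13, adjusted p = 0.955). Timp4, known from the adult heart, was not detected above 0.145 TPM in any library.

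Timp2 made up 32.7 ± 1.26% of the summed TIMP level in DsRed, 58.7 ± 1.46% in MGT and 78.3 ± 1.19% with TMP269. The share of Timp3 was 37.5 ± 10.1%, 20.8 ± 0.234% and 9.98 ± 1.03%. Summed over the 4 genes, TIMP levels were 5058, 3859 and 5164 TPM in the DsRed libraries, 3110.4, 3088 and 3166 in the MGT libraries and 2327, 2315 and 2283 with TMP269. The 23 MMP genes summed to 1591, 1482 and 1714, 873, 842 and 863 and 544, 577 and 573 TPM. Both sums stepped down from group to group without overlap. The ratio of the TIMP sum to the MMP sum was 2.93 ± 0.296 in DsRed, 3.63 ± 0.0622 in MGT and 4.09 ± 0.163 with TMP269. Mmp2 held 41.7 ± 6.12% of the MMP sum in DsRed and 11.2 ± 0.621% with TMP269, where Mmp14 held 52.5 ± 3.06%. These sums weigh abundant genes most, describe transcripts and not protein or activity, and were not tested.

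**Figure D3:**
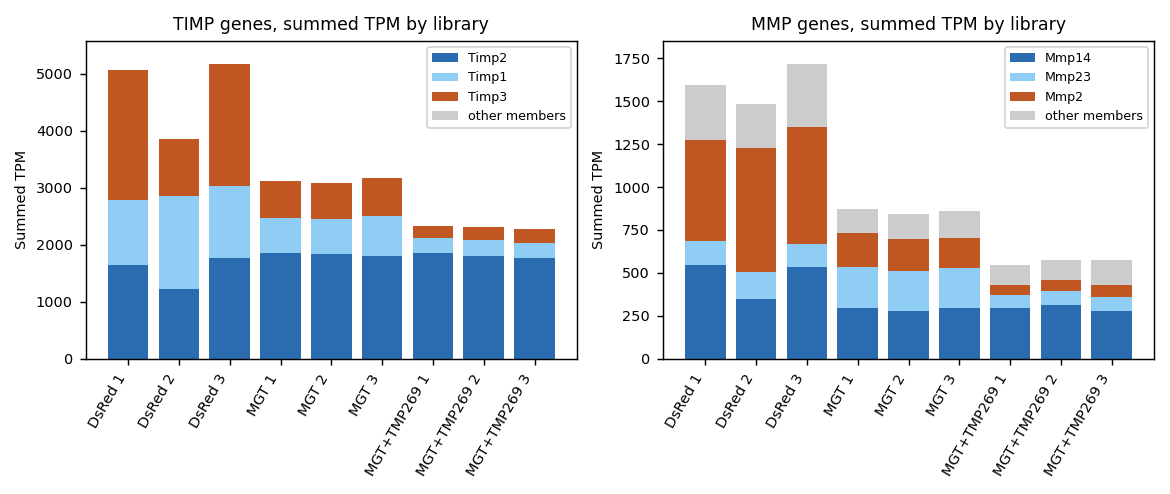
Summed TPM of the TIMP genes (left) and of the MMP genes (right) in each library, stacked by gene, on linear axes from 0. The Timp2 segment is similar in MGT and MGT+TMP269 while the Timp1 and Timp3 segments shrink, and in the MMP bars the Mmp2 segment shrinks most from DsRed to MGT and the Mmp23 segment most from MGT to MGT+TMP269.

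Of the 7 ADAMTS genes whose products cut proteoglycans such as aggrecan and versican, 6 were tested, of which 2 rose and 1 fell with MGT, and 2 rose and 1 fell with TMP269. The lower count was 3 in both when DsRed replicate 2 was left out. Over all genes the lower share then went from 4.18% to 13.8% with MGT and from 5.97% to 11.3% with TMP269. Adamts8 had the largest difference of mean log2(TPM + 1) of all tested members with MGT. Adding 1 TPM shrinks the difference of Adamts20 more, as its DsRed libraries were near 0. Adamts8 stood at 5.94, 2.84 and 5.71 TPM in the DsRed replicates, at 83.1, 79.3 and 77.3 TPM in the MGT replicates and at 14.1, 13.0 and 15.6 TPM with TMP269. The 3 groups were fully separated, MGT being highest and MGT+TMP269 between MGT and DsRed. Adamts8 rose 16.5-fold with MGT (log2 difference 3.84 ± 0.22, adjusted p = 3.22e-06) and fell 5.61-fold with TMP269 (log2 difference −2.41 ± 0.22, adjusted p = 0.000217). It held 1.11 ± 0.0840% of the summed level of the 19 ADAMTS genes in DsRed, 18.9 ± 0.791% in MGT and 5.27 ± 0.332% with TMP269. Adamts20, a versican-cutting enzyme known in mice for its role in pigment cell development, stood at 0.195, 0.112 and 0.474 TPM in the DsRed replicates, at 12.2, 11.4 and 12.0 TPM in the MGT replicates and at 19.5, 17.8 and 19.7 TPM with TMP269. It was under 1 TPM in every DsRed library and above 10 TPM in all 6 others. Adamts20 rose with MGT (log2 difference 3.36 ± 0.17, adjusted p = 1.19e-06) and 1.60-fold with TMP269 (log2 difference 0.64 ± 0.17, adjusted p = 0.0473). The second rise was lost without MGT replicate 1, 2 or 3, or without MGT+TMP269 replicate 1, 2 or 3, or without DsRed replicate 1 (highest adjusted p = 0.173) and at a pseudocount of 0.1 (adjusted p = 0.301).

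Adamts5, a major aggrecan-cutting enzyme of mouse cartilage, stood at 100.4, 56.8 and 94.0 TPM in the DsRed replicates, at 38.1, 38.0 and 38.9 TPM in the MGT replicates and at 64.3, 67.3 and 65.1 TPM with TMP269. MGT was lowest in every library, and MGT+TMP269 overlapped DsRed. Adamts5 fell 2.18-fold with MGT (log2 difference −1.06 ± 0.19, adjusted p = 0.0055) and rose 1.71-fold with TMP269 (log2 difference 0.76 ± 0.19, adjusted p = 0.0404). The rise was lost without MGT replicate 1, 2 or 3, or without MGT+TMP269 replicate 1, 2 or 3 (highest adjusted p = 0.133). Adamts1, an inflammation-linked versican-cutting enzyme, stood at 112, 52.7 and 128 TPM in the DsRed replicates, at 94.4, 98.4 and 98.3 TPM in the MGT replicates and at 51.0, 52.3 and 49.3 TPM with TMP269. DsRed replicate 2 was near the TMP269 libraries and far below the other DsRed libraries. Adamts1 was not called with MGT (log2 difference 0.09 ± 0.28, adjusted p = 0.882) or with TMP269 (log2 difference −0.92 ± 0.28, adjusted p = 0.0742). In the fit that left out that library it was called lower in both, and with MGT the difference turned to −0.30 (adjusted p = 0.0185). Adamts4, another aggrecan-cutting enzyme, was at 6.51 ± 2.60, 5.91 ± 0.415 and 2.98 ± 0.253 TPM and was called only for TMP269 against DsRed (log2 difference −0.85 ± 0.26, adjusted p = 0.0428). This was lost without MGT replicate 1, 2 or 3, or without MGT+TMP269 replicate 1, 2 or 3, or without DsRed replicate 1 or 3 (highest adjusted p = 0.124). Adamts9 was at 16.2 ± 7.89, 6.16 ± 0.340 and 6.60 ± 0.702 TPM and was not called with MGT (adjusted p = 0.0662), although without DsRed replicate 2 it was 3.36-fold lower (adjusted p = 3.41e-05).

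Procollagen N-proteinases remove the amino-terminal propeptide of fibrillar procollagens. Adamts2, the main enzyme for type I procollagen, stood at 119, 72.2 and 129 TPM in the DsRed replicates, at 73.5, 75.3 and 76.5 TPM in the MGT replicates and at 33.2, 31.9 and 36.6 TPM with TMP269. The TMP269 libraries were below all others, and DsRed replicate 2 lay below the MGT libraries. Adamts2 fell 2.21-fold with TMP269 (log2 difference −1.13 ± 0.20, adjusted p = 0.00693) and was not called with MGT (adjusted p = 0.189, and adjusted p = 0.000279 without DsRed replicate 2). Adamts14, of the same activity, was at 19.4 ± 5.70, 21.8 ± 0.882 and 18.4 ± 1.22 TPM and was not called in any comparison. Of the other ADAMTS genes, Adamts10, linked to fibrillin microfibrils, stood at 49.97, 45.6 and 51.6 TPM in the DsRed replicates, at 41.5, 39.2 and 41.2 TPM in the MGT replicates and at 20.9, 20.9 and 23.8 TPM with TMP269. Its TMP269 libraries lay well below the rest. Adamts10 fell 1.86-fold with TMP269 (log2 difference −0.87 ± 0.12, adjusted p = 0.00174) and was not called with MGT (adjusted p = 0.2, and adjusted p = 0.0238 without DsRed replicate 2). Adamts7 and Adamts12 both cut cartilage oligomeric matrix protein. Adamts7 was at 12.1 ± 3.16, 13.3 ± 0.975 and 19.6 ± 3.81 TPM and Adamts12 at 29.2 ± 16.7, 27.0 ± 1.95 and 10.8 ± 0.974 TPM. Neither was called in any comparison. Adamts12 had 39.7, 9.91 and 37.9 TPM in the DsRed libraries, and without replicate 2 it was called lower with MGT (difference −0.51 in place of 0.11 ± 0.43, adjusted p = 0.00759) and with TMP269 (adjusted p = 5.94e-05). Adamts6 was between 1.59 and 3.14 TPM in the group means and was not called.

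ADAMTS-like proteins bind microfibrils of the matrix and have no enzyme activity. Adamtsl2, which binds fibrillin and latent TGF-beta binding protein, was the most abundant of the 24 ADAMTS and ADAMTS-like genes. It stood at 255, 402 and 347 TPM in the DsRed replicates, at 864, 876 and 858 TPM in the MGT replicates and at 463, 477 and 494 TPM with TMP269. MGT was highest, and MGT+TMP269 lay between MGT and DsRed with no overlap. Adamtsl2 rose 2.59-fold with MGT (log2 difference 1.39 ± 0.15, adjusted p = 0.000207) and fell 1.81-fold with TMP269 (log2 difference −0.86 ± 0.15, adjusted p = 0.00664). Against DsRed its 1.43-fold higher level with TMP269 (log2 difference 0.54 ± 0.15, adjusted p = 0.0301) was lost under median-ratio scaling (adjusted p = 0.438) and without MGT replicate 1, 2 or 3, or without MGT+TMP269 replicate 1, 2 or 3 (highest adjusted p = 0.0988). Adamtsl5 stood at 31.8, 29.8 and 44.2 TPM in the DsRed replicates, at 94.8, 109 and 111 TPM in the MGT replicates and at 130.2, 138 and 119 TPM with TMP269. All libraries with MGT were above all DsRed libraries. Adamtsl5 rose 2.98-fold with MGT (log2 difference 1.57 ± 0.16, adjusted p = 0.000144) and its further difference with TMP269 was not called (log2 difference 0.29 ± 0.16, adjusted p = 0.328). Adamtsl3 stood at 24.2, 4.21 and 14.0 TPM in the DsRed replicates, at 14.2, 14.7 and 17.0 TPM in the MGT replicates and at 3.56, 3.51 and 3.98 TPM with TMP269. DsRed ranged widely, while TMP269 was lower than every other library. Adamtsl3 fell 4.15-fold with TMP269 (log2 difference −1.80 ± 0.46, adjusted p = 0.0419), which was lost without MGT replicate 1, 2 or 3, or without MGT+TMP269 replicate 1, 2 or 3, or without DsRed replicate 3 (highest adjusted p = 0.142). Adamtsl1 and Adamtsl4 were at 6.21 ± 0.810 and 18.1 ± 5.01 TPM in MGT and were not called in any comparison.

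**Figure D4:**
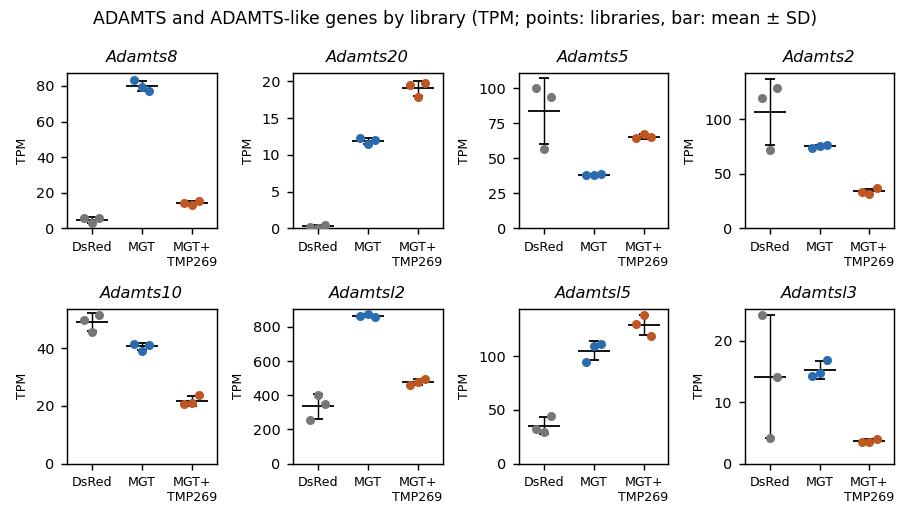
TPM of 8 ADAMTS and ADAMTS-like genes in each library (points), with mean and SD of each group (bars, n = 3), on linear axes from 0. Adamts8 and Adamtsl2 peak with MGT alone, Adamts20 and Adamtsl5 are high in both groups with MGT, and Adamts2, Adamts10 and Adamtsl3 are lowest with TMP269.

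The remaining members were low. Besides Mmp9, Adamts15 and Adamts17 had a group mean of at least 1 TPM without passing the filter. Adamts15, a further proteoglycan-cutting enzyme, was at 0.200, 0.104 and 0.195 TPM in DsRed, 0.342, 0.741 and 0.243 in MGT and 1.19, 1.61 and 2.17 with TMP269, where all 3 libraries exceeded all others. Adamts17 was at 0.595, 1.41 and 4.32 TPM in MGT, so that its mean rests on replicate 3, and at no more than 0.518 TPM in the other 6 libraries. All group means of the other 14 genes were under 1 TPM, with Mmp27 highest at 0.925 TPM in DsRed. Mmp7 was listed at 0 in every library, and 12 members were listed at 0 in at least 1 library. Mmp24, a membrane-bound MMP known from neurons, was at 0.410, 0.482 and 0.405 TPM with TMP269 and at most 0.0779 TPM elsewhere. Mmp1b, a mouse relative of the interstitial collagenase, was at 1.37, 0.216 and 0.460 TPM in DsRed and listed at 0 in all TMP269 libraries.

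The plasminogen system activates several MMPs. Of the 10 genes listed under it, which include the coagulation inhibitor Tfpi, 8 were tested. With MGT 2 fell and 1 rose, and with TMP269 5 fell and 0 rose (medians −0.77 and −0.70). Over all genes 4.18% fell and 8.14% rose with MGT, and 5.97% fell and 3.32% rose with TMP269. When DsRed replicate 2 was left out, 6 fell with MGT, and 13.8% of all genes were called lower, against 4.18% with it. Serpine2, an inhibitor of the activators, rose from 177 ± 30.6 to 709.8 ± 36.2 TPM with MGT (adjusted p = 6.47e-06) and fell to 339 ± 11.7 TPM with TMP269 (adjusted p = 0.000928). The activators Plau and Plat and the receptor Plaur all fell with TMP269. Plau, the urokinase, fell from 15.2 ± 4.36 to 3.99 ± 0.711 TPM (adjusted p = 0.00321). Plat, the tissue activator, fell from 28.8 ± 2.74 to 14.2 ± 0.684 TPM (adjusted p = 0.013), a call lost without MGT replicate 2, or without MGT+TMP269 replicate 1 or 3 (highest adjusted p = 0.0619). For Plaur the means were 28.8 ± 0.531 and 15.8 ± 1.95 TPM (adjusted p = 0.00508).

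Membrane-bound ADAM proteases, which shed surface proteins, had 10 of 11 genes tested. With MGT 2 fell, Adam12 (9.88 ± 6.02 to 2.14 ± 0.678 TPM, adjusted p = 0.0466) and Adam22 (adjusted p = 0.0205), and none rose. The Adam12 call was lost without MGT replicate 1, 2 or 3, or without MGT+TMP269 replicate 1, 2 or 3, or without DsRed replicate 1 or 3 (highest adjusted p = 0.164), and that of Adam22 without MGT replicate 1, 2 or 3, or without DsRed replicate 1 or 3 (highest adjusted p = 0.081). With TMP269 Adam8, a leukocyte protease, fell from 37.5 ± 10.5 to 7.08 ± 3.29 TPM (adjusted p = 0.025) and none rose. This fall was lost without MGT replicate 1 or 3, or without MGT+TMP269 replicate 1 or 3 (highest adjusted p = 0.108). Macrophage markers fell in the same comparison, and their part in the Adam8 value was not tested. Leaving out DsRed replicate 2 raised the lower count with MGT to 5 and the higher count with TMP269 to 5. The shares of all genes so called then went from 4.18% to 13.8% and from 3.32% to 19.3%.

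Of 10 convertases and other activating proteases, 9 were tested, with 2 higher and 1 lower with MGT, and 0 higher and 2 lower with TMP269. The latter counts were 3 and 3 when DsRed replicate 2 was left out. Of all genes, 19.3% were then higher and 11.3% lower with TMP269, against 3.32% and 5.97% with that library. Pcsk5, a relative of furin, rose from 9.36 ± 2.43 to 31.6 ± 2.11 TPM with MGT (adjusted p = 0.000258). Htra1, a serine protease that cuts matrix proteins, rose from 311 ± 36.1 to 460.5 ± 17.5 TPM (adjusted p = 0.00577), which was lost under median-ratio scaling (adjusted p = 0.209). Tll1, a tolloid protease that removes procollagen C-propeptides, fell from 19.3 ± 12.0 to 2.56 ± 0.253 TPM (adjusted p = 0.0074). With TMP269, Bmp1, the main procollagen C-proteinase, fell from 221 ± 0.155 to 131 ± 5.53 TPM (adjusted p = 0.0209) and the convertase Pcsk6 from 45.5 ± 0.987 to 22.9 ± 1.05 TPM (adjusted p = 0.0277). Both calls were lost when any single MGT or MGT+TMP269 library was left out, with highest adjusted p-values of 0.0838 and 0.109. Furin itself was at 46.9 ± 16.9, 77.1 ± 2.05 and 72.4 ± 3.41 TPM and was not called.

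Lysosomal cathepsins and their cystatin inhibitors had all 9 genes tested. With MGT 3 rose and 0 fell, and with TMP269 1 rose and 5 fell. Over all genes 8.14% rose and 4.18% fell with MGT, and 3.32% rose and 5.97% fell with TMP269. Without DsRed replicate 2, 4 rose with MGT (12.5% of all genes), and 2 rose and 7 fell with TMP269 (19.3% and 11.3%). Cst3, the secreted inhibitor cystatin C, rose from 2457 ± 507 to 4605 ± 167 TPM with MGT (adjusted p = 0.00136) and fell to 1994 ± 24.9 TPM with TMP269 (adjusted p = 0.000576). Its rise missed the threshold under median-ratio scaling (adjusted p = 0.0708). Ctss, a cathepsin of macrophages, fell from 119 ± 32.8 to 12.5 ± 5.09 TPM with TMP269 (adjusted p = 0.000542), beside the macrophage markers, whose part was not tested. The lysosomal protease Ctsd fell from 2383 ± 215 to 1686 ± 14.1 TPM (adjusted p = 0.0181), which was lost under median-ratio scaling and quantile normalization (adjusted p = 0.0552 and 0.102) and without MGT replicate 1 or 3, or without MGT+TMP269 replicate 1, 2 or 3 (highest adjusted p = 0.0967).

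Other regulators and receptors of these proteases had 9 of 14 genes tested, with 1 higher and 1 lower with MGT, and 0 higher and 2 lower with TMP269. With DsRed replicate 2 left out, 3 and 4 were lower, when 13.8% and 11.3% of all genes were, against 4.18% and 5.97% with it. Thbs2, a matricellular protein that promotes uptake of MMP2, fell from 204 ± 87.1 to 67.3 ± 4.83 TPM with MGT (adjusted p = 0.0104) and to 21.1 ± 1.03 TPM with TMP269 (adjusted p = 0.00896). Cd44, a hyaluronan receptor that can hold MMPs at the cell surface, rose with MGT from 73.3 ± 30.8 to 144 ± 7.13 TPM (adjusted p = 0.0424), lost without MGT replicate 1, 2 or 3, or without MGT+TMP269 replicate 1, 2 or 3 (highest adjusted p = 0.136). Reck, a membrane-anchored MMP inhibitor, was at 20.2 ± 8.10, 25.5 ± 0.643 and 23.5 ± 2.40 TPM and was not called.

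Of 13 genes for matrix substrates, 10 were tested. With MGT 2 rose and 2 fell, and with TMP269 7 fell and 0 rose (medians 0.34 and −1.19, against 0.11 over all genes in both). Over all genes 8.14% rose and 4.18% fell with MGT, and 3.32% rose and 5.97% fell with TMP269. Without DsRed replicate 2, 3 fell with MGT and 8 with TMP269, when 13.8% and 11.3% of all genes fell. Acan, the aggrecan core protein, rose from 12.1 ± 5.00 to 50.8 ± 2.54 TPM with MGT (adjusted p = 0.000865) and fell to 2.54 ± 0.491 TPM with TMP269 (adjusted p = 5.4e-05). The collagen chain Col3a1 fell from 2650.1 ± 849.7 to 754 ± 75.2 TPM with MGT (adjusted p = 0.000858) and to 203 ± 32.4 TPM with TMP269 (adjusted p = 0.0011). Col1a2, a chain of type I collagen, fell from 2169 ± 50.6 to 351 ± 17.6 TPM with TMP269 (adjusted p = 0.000183). The basement membrane collagens Col4a1 and Col4a2 were not called in any comparison. Where limma called 0 genes of these lists in a direction, the numbers at an unadjusted p under 0.05 were as follows. With TMP269, 1 plasminogen system, 2 ADAM, 3 convertase, 1 regulator and 0 substrate genes were higher. With MGT, 0 ADAM and 1 AP-1 genes were higher and 1 cathepsin or cystatin genes lower.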

How the data were processed

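RNA was isolated with TRIzol and made into directional libraries, per the labels' protocols, and the 9 libraries form 3 groups of 3. Virus was added 24 h after seeding. The authors deposited a single table of TPM values by gene symbol. The submitters' processing notes name kallisto, DESeq2 and build mm9, without versions or roles. Annotation and strand setting are not stated in the sources used here. TPM totals were 988020 to 988999, so the shares of genes depend on each other, and depth is unknown. Of 34804 lines, 25 held a date as symbol and were left out.

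limma 3.58.1 (R 4.3.3) was run on log2(TPM + 1) with 1 linear model of the groups over all 9 libraries, a variance trend and Benjamini-Hochberg adjustment over the 13228 genes whose mean TPM was 1 or more, after tests on simulated data. Members, lists and alternatives were chosen with earlier results of these data known. By rule, members called in the first 2 comparisons and Mmp2, Mmp14 and the TIMP genes are given per library, and up to 4 called genes of a list with the smallest adjusted p are named, in part. Mmp1b, Mmp9, Mmp24, Adamts1, Adamts12, Adamts15, Adamts17, Tfpi and list genes given as not called were picked outside this rule, with their values in view. Motifs were searched in RefSeq promoters (GRCm38.p6) matched by symbol.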

Additional observations from a re-analysis of the deposited data

How the results depend on the processing

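Alternatives were a pseudocount of 0.1, no filter, median-ratio and quantile scaling, a fit of only the 2 groups compared, array weights, the replicate block and leaving out each library. Of the members called, 10 of 16 were called in the same direction in every alternative for MGT against DsRed, 11 of 17 for TMP269 against MGT and 15 of 22 for TMP269 against DsRed. With array weights 16 members fell with MGT, and the genes called in all were 2915 for MGT against DsRed (1630 in the fit as reported) and 4818 for TMP269 against MGT (1229). With only the 2 groups compared these were 1066 and 4476, and 1789 for TMP269 against DsRed (3016), where 4 members were higher. With 1 library left out, members lower with MGT ran from 6 to 18, members higher with TMP269 from 1 to 5 and members higher for TMP269 against DsRed from 4 to 7. The counts over all genes then ran from 1068 to 3476, from 635 to 4054 and from 1865 to 4848. Without DsRed replicate 2, Adamts1 and Adamts12 reversed with MGT, to −0.302 and −0.508, and their range with 1 library left out was −0.302 to 0.334 and −0.508 to 0.441. The cause was not tested. With no filter the calls of Mmp8, Mmp13 and Mmp14 with MGT, of Mmp19, Adamts5, Adamts20 and Adamtsl3 with TMP269 added, and of Mmp11, Mmp12, Adamts4 and Adamtsl2 for TMP269 against DsRed were lost, as were those of the listed genes Fosl1, Adam12, Cd44 and Lyz2 with MGT and Adam8, Pcsk6 and Ctsd with TMP269 added. The fit of only the 2 groups compared lost Mmp8, Mmp13 and Mmp14 with MGT, and Mmp11, Mmp12, Mmp13, Mmp14, Mmp17, Adamts4 and Adamtsl2 for TMP269 against DsRed.

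With the replicate block, 2 members rose with TMP269, against 4 without it, and Mmp19, Adamts5 and Adamts20 lost their call there (adjusted p = 0.0573, 0.0608 and 0.0875), and 12 in place of 13 fell. Over all genes the block took the higher calls of that comparison from 439 to 276 and the calls in all from 1229 to 947. Same-numbered libraries share only a number: their deviations from the group means correlated between −0.070 and 0.132, and 4 of 9 correlated best with their own number. With the block, 6 members rose and 10 fell with MGT, and 8 were higher and 15 lower for TMP269 against DsRed, when the genes called in all were 1418 and 2679 in place of 1630 and 3016. TPM gives no depth, so the precision of members near 1 TPM is not known.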
